A study of Mus musculus with 5 samples.

Results

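Purinergic signalling genes of mouse Kupffer cells, the macrophages that line the liver sinusoids, were followed in cells with 1 or no working copy of Id3, a helix-loop-helix inhibitor of E proteins. The set held 10 of the 46983 genes in the count table: 6 P2Y receptors (P2ry1, P2ry2, P2ry6, P2ry12, P2ry13, P2ry14), 2 P2X channels (P2rx4, P2rx7) and 2 enzymes that degrade nucleotides outside the cell (Entpd1, Nt5e). They were taken by gene symbol, and all 10 passed the filter on low counts. Poly-A RNA of liver Kupffer cells was compared between 3 heterozygous samples (ID3+/-, replicates 1, 2 and 3) and 2 knockout samples (ID3-/-, replicates 2 and 3). Each sample therefore carried at least 1 disrupted Id3 allele, and wild-type cells were not analysed here. The sources used here give neither how the allele was made, nor the strain and sex of the mice, nor whether each sample was a separate animal. The spread between samples may be technical. All 5 column names carry the tag 3w, which no source explains; an age is not otherwise given. The genes were chosen by symbol with measured values in view, namely their knockout against heterozygous differences in these same 5 libraries. Their fold changes are therefore given as a description, without p-values, and "called" means only that a gene had an adjusted p under 0.05 in a test of all 16436 genes that passed the filter.

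Cells release ATP, ADP, UTP and UDP when they are stimulated, stressed or broken, and neighbouring cells read these nucleotides through P2 receptors. P2Y receptors couple to G proteins, while P2X receptors are cation channels that ATP opens. Entpd1 (CD39) converts ATP and ADP to AMP, and Nt5e (CD73) converts AMP to adenosine, which acts on a separate family of P1 receptors. In macrophages this system is known for steering movement toward damaged cells, uptake of debris and, through P2rx7, activation of the NLRP3 inflammasome.

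The 5 libraries held 74823374 to 80944135 counts in genes. Id3 itself had 17479 to 18813 counts in heterozygous libraries but 76 and 110 counts in the knockout pair, and thus matched the labels. Summed markers of Kupffer cells lay at 69210 to 72140 CPM, counts scaled to the size of the library, in the heterozygous and 75930 to 79580 CPM in the knockout libraries. The sum hides changes of both signs: of its 15 markers, 3 were called higher in the knockout and 2 lower, Id3 included. Marco, for one, had 1554 to 1912 CPM against 3569 and 3614 CPM, and Clec4f 16700 to 16890 CPM against 15260 and 13870 CPM. Markers of other cells were present in all libraries. The sums overlapped between the genotypes for some cell types, monocytes, B cells and erythroid cells among them. The monocyte sum, too, hides changes of both signs: of 12 markers, 11 were tested, with 3 called higher and 1 lower. Ly6c2 had 0.401 to 1.1 CPM in heterozygous and 33.8 and 9.96 CPM in knockout libraries. Fn1 had 349 to 425 CPM against 61.8 and 114 CPM. For other cell types the sums did not overlap, hepatocytes, endothelial cells and neutrophils included. The 19 hepatocyte markers summed to 25340 to 31410 CPM against 5393 to 12820 CPM, with 15 called lower in the knockout. The 15 endothelial markers summed to 1385 to 1717 CPM against 1316 and 1316 CPM, with 5 called lower. The 14 neutrophil markers, of which 11 were tested, summed to 164.4 to 192.5 CPM against 307.8 and 603.8 CPM, with 8 called higher. They were not alike in the 2 knockout libraries. In knockout replicates 2 and 3, Ngp had 76.4 and 0.475 CPM and Ltf 39.5 and 0 CPM. Mmp9 had 253 and 162 CPM there, and S100a8 37.7 and 16.2 CPM. Entries that name no gene held 47% to 48.6% of the counts in heterozygous libraries and 40% and 42.8% in the knockout pair, and the part of this difference in the results was not tested. None of the hepatocyte, endothelial or neutrophil markers was at 0 in all libraries. In bulk RNA, fewer cells of a type and less RNA per cell cannot be told apart.

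Of the 10 genes, 4 supplied nearly all of the purinergic transcripts. Levels of different genes are compared here as normalised CPM per kilobase of exon. P2ry13, P2ry6, Entpd1 and P2rx4 together made up 89.35% to 92.39% of the summed level of the 10 genes in every library. In heterozygous cells P2ry13 stood first, at 112 ± 6.49 CPM per kilobase (SD, n = 3), followed by P2ry6 at 81.1 ± 5.73, Entpd1 at 64.6 ± 6.22 and P2rx4 at 61.8 ± 1.67. Entpd1 and P2rx4 overlapped in range over the 3 libraries, as did the next neighbours P2rx7 (17.8 ± 1.92) and P2ry12 (13 ± 3.97). A 16.4-fold step separated P2ry12 from the lower 4, P2ry2 (0.791 ± 0.354), P2ry14 (0.75 ± 0.0748), Nt5e (0.449 ± 0.0823) and P2ry1 (0.317 ± 0.101 CPM per kilobase). In this lower tier P2ry2 overlapped P2ry14, and Nt5e overlapped P2ry1. In knockout cells P2rx4 (95.3 ± 7.66, SD, n = 2), P2ry6 (93.7 ± 2.02) and P2ry13 (82.4 ± 18.2 CPM per kilobase) came first, each overlapping its neighbour in that order. The order of the top genes depends on the length used: with the longest transcript in place of all exons, P2rx4 ranked above P2ry6 and P2ry6 above P2ry13 over the 5 libraries. Summed over the 10 genes, the level was 334 to 370.1 CPM per kilobase in heterozygous libraries, against 342.8 and 358.6 in the knockout pair, so the totals of the genotypes overlapped.

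**Figure D1:**
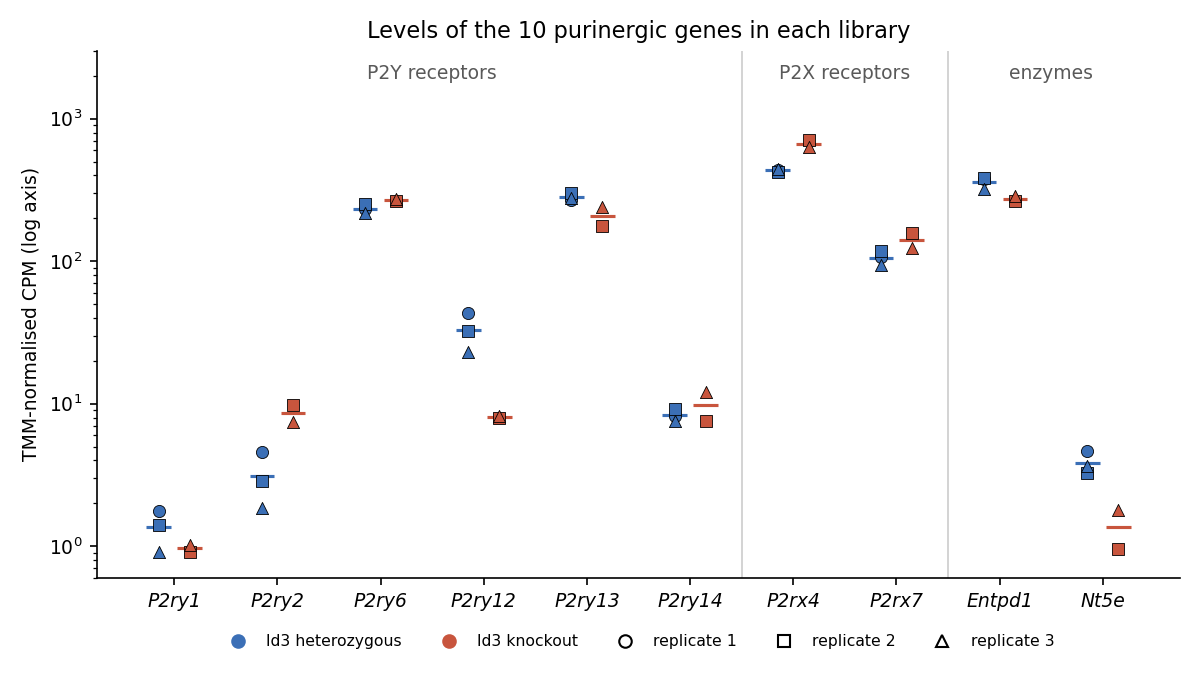
Normalised CPM on a log axis for each of the 10 genes. Each point is 1 library (blue, 3 heterozygous; red, 2 knockout; the marker shape gives the replicate) and each bar the group mean. The 2 knockout points of P2ry12, at 7.97 and 8.17 CPM, lie below all 3 heterozygous points, and those of P2rx4, at 631 and 708 CPM, lie above them.

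P2ry12, P2ry13 and P2ry14 lie side by side on chromosome 3, in reverse orientation within the span of the Mediator gene Med12l. P2ry12 encodes the ADP receptor through which platelets aggregate and microglia extend their processes. It had 43.3, 32.6 and 23.1 CPM in heterozygous replicates 1, 2 and 3 and 7.97 and 8.17 CPM in knockout replicates 2 and 3. All knockout values lay below all heterozygous ones, whose coefficient of variation was 30.7%. The log2 fold change, knockout minus heterozygous as throughout, was -2.03 ± 0.28 (SE), a level 4.09-fold lower, and P2ry12 was called lower by edgeR. That call was lost without heterozygous replicate 2 (log2 fold change -2.04) and without knockout replicate 2 (-2.02). It was also lost in a fit of all 5 samples with a term for the replicate number (-1.765). An offset for transcript length and GC content gave -1.44 and left the call in place. Counts of P2ry12 ran from 1682 to 3558 in the heterozygous libraries against 601 and 632. Med12l, which shares 9 exonic bases with P2ry12 on the opposite strand, had 74 to 174 counts in the 5 libraries. The endothelial marker Lyve1 had a profile much like that of P2ry12, with 27.2, 17.4 and 12.7 CPM in heterozygous cells and 4.06 and 4.24 CPM in knockout cells. Of the 15 endothelial markers, 5 were called lower (Lyve1, Ptprb, Tek, Oit3 and Cdh5) and 10 were not called. Ptprb, an endothelial phosphatase, had 39.9, 33.7 and 26.7 CPM against 10.6 and 12.1 CPM, while Stab2, a scavenger receptor, had 401, 378 and 371 CPM against 414 and 355 CPM. Platelet markers, from another cell rich in P2ry12, summed to 104.2 to 125.5 CPM in heterozygous libraries and to 156.9 and 165.4 CPM in the knockout pair. The part of endothelial RNA in the P2ry12 values was not tested.

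P2ry13, the second ADP receptor of this cluster, couples to inhibitory G proteins as P2ry12 does and was far more abundant. Its levels were 271, 302 and 280 CPM in heterozygous cells and 176 and 241 CPM in knockout cells. The groups did not overlap, but knockout replicate 2 stood further away than replicate 3. Its log2 fold change of -0.45 ± 0.15 was not called. It was -0.68, and called, without knockout replicate 3, and -0.24 without knockout replicate 2. P2ry14, the receptor for UDP-glucose, had 8.16, 9.17 and 7.54 CPM against 7.51 and 12 CPM. Here the knockout libraries straddled the heterozygous ones. The log2 fold change was 0.24 ± 0.24, and turned to -0.13 without knockout replicate 3. With the length and GC offset it was 1.02 and called higher, so neither its size nor its call holds across settings. The ratio of P2ry13 to P2ry12 per kilobase was 6.29, 9.35 and 12.2 in heterozygous cells and 22.2 and 29.7 in knockout cells.

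P2ry2 and P2ry6 are neighbours on chromosome 7 and code for receptors that act through the Gq class of G proteins. P2ry2, which responds to ATP and UTP, had 4.60, 2.86 and 1.85 CPM in heterozygous cells and 9.76 and 7.39 CPM in knockout cells. Both knockout libraries exceeded all heterozygous ones, and these varied among themselves with a coefficient of variation of 44.8%. The log2 fold change of 1.46 ± 0.39, or 2.76-fold, was the highest of the 10 but was not called by edgeR. It was called under 4 alternatives: DESeq2 (1.49), limma-voom (1.53), upper-quartile scaling (1.53) and a filter of at least 1 CPM in 2 samples (1.49). From 135 to 378 counts in heterozygous and 572 and 736 counts in knockout libraries stood behind these values. P2ry6, the UDP receptor linked to engulfment by macrophages, stood below P2ry13 per kilobase of exon in heterozygous cells and overlapped it in knockout cells. It had 231, 252 and 219 CPM in heterozygous cells and 266 and 275 CPM in knockout cells. These ranges did not overlap, yet the log2 fold change was small, 0.21 ± 0.09, and was not called. With the length and GC offset it was -0.01. P2ry1, the ADP receptor coupled to Gq, was the least abundant in heterozygous cells, with 1.77, 1.41 and 0.906 CPM, and 0.915 and 1.02 CPM in knockout cells. The genotypes overlapped, from 66 to 145 counts a library, with a log2 fold change of -0.49 ± 0.43.

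The make-up of the P2Y transcripts followed from these values. Per kilobase, P2ry13 made up 51.8%, 54.0% and 56.1% of the 6 P2Y genes in heterozygous libraries and 41.3% and 48.4% in knockout libraries. P2ry6 made up 38.8%, 39.4% and 38.6% against 54.8% and 48.3%. The share of P2ry12 was 8.24%, 5.77% and 4.61% against 1.86% and 1.63%. By this length P2ry6 stood at 0.687 to 0.749 times the level of P2ry13 in heterozygous cells and at 1.33 and 0.999 times in knockout cells. These shares and ratios use all exons, 2887 bases for P2ry6 and 2528 for P2ry13. With the longest transcripts, 1946 and 2528 bases, P2ry6 ranked above P2ry13 over the 5 libraries. Which of the 2 genes stands first is therefore not settled. The length used scales the ratio alike in all 5 libraries.

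**Figure D2:**
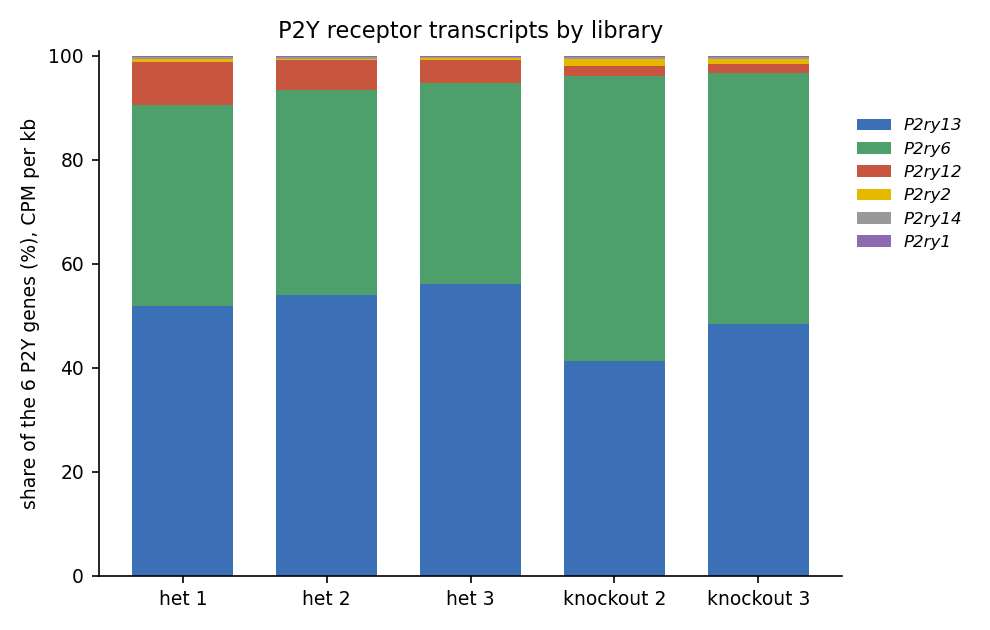
Share of each P2Y gene in the summed CPM per kilobase of exon of the 6 P2Y genes, 1 bar per library, in percent. The shares depend on the length taken for each gene. P2ry13 and P2ry6 fill most of every bar, and the P2ry12 segment falls from 4.61% to 8.24% in the heterozygous bars to 1.63% and 1.86% in the knockout bars.

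P2rx4 and P2rx7, neighbours on chromosome 5, encode the main ATP-gated channels of macrophages. P2rx4, much of whose protein resides in lysosomes, had 434, 422 and 446 CPM in heterozygous cells and 708 and 631 CPM in knockout cells. The 3 heterozygous values lay within a coefficient of variation of 2.71%, and both knockout values were well above them. The log2 fold change of 0.63 ± 0.09, or 1.54-fold, was called higher. Omitting heterozygous replicate 1 (0.63) or 2 (0.61) ended the call and hardly moved the value. A term for the replicate number did the same (0.624). The length and GC offset gave 0.86. P2rx7, which needs far more ATP to open and triggers the inflammasome, had 107, 117 and 94.5 CPM against 157 and 123 CPM. Here too the groups did not overlap, with knockout replicate 3 close to heterozygous replicate 2. The log2 fold change of 0.40 ± 0.14 was not called by edgeR, but was called by DESeq2 (0.43) and with the length and GC offset (0.62). Without knockout replicate 2 it was 0.21. Per kilobase, P2rx4 exceeded P2rx7 by 3.46, 3.06 and 4.01 times in heterozygous and by 3.82 and 4.35 times in knockout libraries, so this ratio overlapped between genotypes. All exons were used, 7025 bases for P2rx4 and 5970 for P2rx7. With the longest transcripts, 3895 and 4936 bases, the ratio would be larger.

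The enzymes both had negative fold changes. Entpd1, the first step from ATP toward adenosine, had 379, 382 and 320 CPM in heterozygous cells and 264 and 285 CPM in knockout cells. The ranges did not overlap, and the log2 fold change was -0.39 ± 0.11, which was not called by edgeR. DESeq2 (-0.37), limma-voom (-0.39) and the 1 CPM filter (-0.36) called it, as did the fit without heterozygous replicate 3 (-0.47). The length and GC offset turned it to 0.09. Nt5e, which completes the path to adenosine, was scarce: 4.64, 3.26 and 3.68 CPM against 0.955 and 1.78 CPM, from 257 to 381 counts against 72 and 138. Both knockout libraries lay below all heterozygous ones. The log2 fold change was -1.49 ± 0.38, or 2.82-fold lower, and was called lower. That call was lost on omitting heterozygous replicate 1 (-1.34), 2 (-1.60) or 3 (-1.53) or knockout replicate 2 (-1.12), and held without knockout replicate 3 (-2.002). It was also lost with library size alone (-1.49), without a filter on low counts (-1.49) and with the length and GC offset (-1.23). A term for the replicate number (-1.403) ended the call too. Hepatocyte and endothelial marker sums were lower in the same knockout libraries, and their part in the Nt5e values was not tested. Entpd1 exceeded Nt5e per kilobase by 126 to 181 times in heterozygous and by 427 and 246 times in knockout cells. These ratios use all exons, 5580 bases for Entpd1 and 8602 for Nt5e. With the longest transcripts, 4221 and 3995 bases, the ratios would be smaller.

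In all, 3 of the 10 genes were called, 1 higher (P2rx4) and 2 lower (P2ry12, Nt5e), beside 16.4% of all genes tested, 6.41% called higher and 10.0% called lower. The groups did not overlap in 8 of the 10, with the knockout higher in 4 and lower in 4, beside 51.5% of all genes tested (24.6% with the knockout higher, 26.9% lower). Because the choice of genes used this contrast, nothing is read from these shares. The median log2 fold change was -0.09 over the 10 genes and -0.02 over all genes tested. The P2X channels both had positive values, the enzymes both negative ones, and the P2Y receptors 3 of each sign. Among heterozygous libraries, replicate 3 had the lowest value for 7 of the 10 genes.

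**Figure D3:**
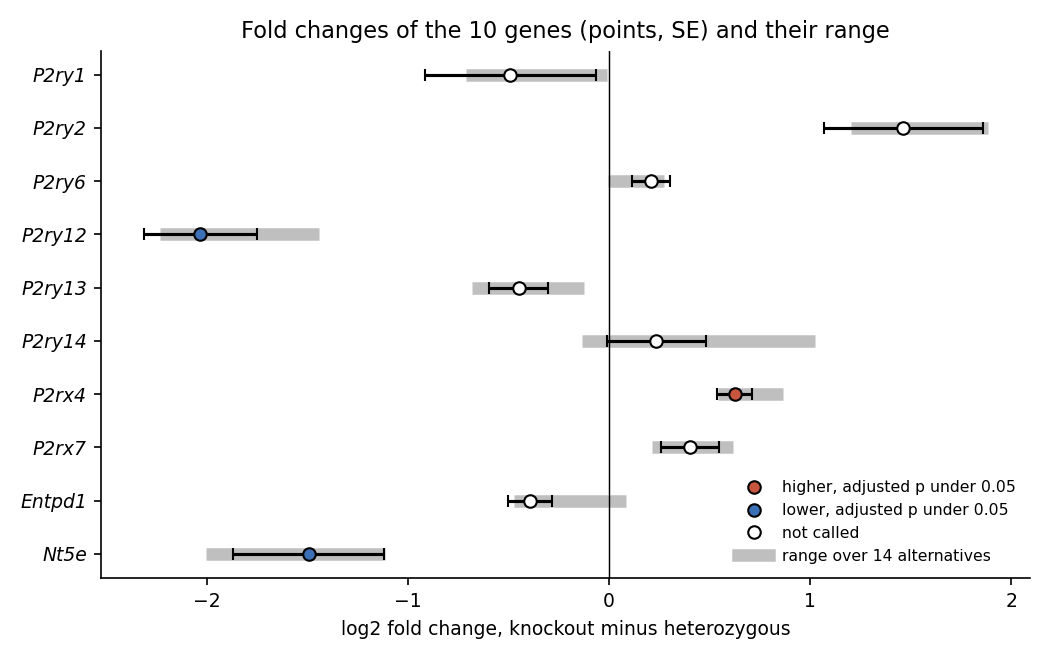
Log2 fold changes of the 10 genes, knockout minus heterozygous, with SE (points and black bars; red called higher, blue called lower, white not called) and the range over 14 alternative settings (grey). P2ry12, at -2.03, lies furthest below 0 and P2ry2, at 1.46, furthest above it; the grey ranges of P2ry6, P2ry14 and Entpd1 cross 0.

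Promoter sequence of the genes was read for 2 short motifs, because Id3 restrains E proteins, which bind E-boxes, and because PU.1, the master factor of macrophages, binds purine-rich sites. The E-box letters searched were CAGCTG and CAGGTG and the PU.1 core letters GAGGAA, on both strands, in the 250 bases before each RefSeq start (build GRCm38.p6). The 2 motifs shared no bases in any match of the 15 promoters. RefSeq starts were matched for 9 genes, all but P2ry6, with 15 promoters in all. The E-box letters occurred in 3 of the 15 (20%), beside 27.7% of 32851 promoters, and GAGGAA in 6 of the 15 (40%), beside 23.3%. Promoters of 1 gene can overlap, and 4 of the 6 with GAGGAA belong to P2ry14, of which 2 hold the same copy; by gene, 3 of the 9 had a match of each motif. A match is a run of letters and not a binding site. Shown first are P2ry12 and P2rx4, the receptors called, in which neither motif was found in this window; then P2ry2 and Entpd1, which hold the E-box letters, and P2ry13, which holds GAGGAA. Capitals mark the matches, 5′ to 3′ on the strand of the gene.
P2ry12 (chr3:59262986-59263235, minus strand): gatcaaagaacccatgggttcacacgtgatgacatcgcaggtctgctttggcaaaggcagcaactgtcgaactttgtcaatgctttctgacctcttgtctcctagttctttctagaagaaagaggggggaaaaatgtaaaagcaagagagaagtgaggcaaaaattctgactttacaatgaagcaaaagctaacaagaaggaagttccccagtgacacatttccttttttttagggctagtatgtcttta
P2rx4 (chr5:122707294-122707543, plus strand): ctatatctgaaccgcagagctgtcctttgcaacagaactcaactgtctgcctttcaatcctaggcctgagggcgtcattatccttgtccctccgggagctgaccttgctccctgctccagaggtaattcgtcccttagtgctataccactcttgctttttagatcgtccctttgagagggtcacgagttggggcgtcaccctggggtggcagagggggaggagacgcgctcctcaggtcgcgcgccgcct
P2ry2 (chr7:101012054-101012303, minus strand): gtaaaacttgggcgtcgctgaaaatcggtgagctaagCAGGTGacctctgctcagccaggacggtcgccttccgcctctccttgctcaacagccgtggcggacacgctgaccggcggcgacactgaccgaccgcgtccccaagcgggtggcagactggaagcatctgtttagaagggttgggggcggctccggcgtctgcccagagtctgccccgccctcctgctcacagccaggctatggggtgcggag
Entpd1 (chr19:40612116-40612365, plus strand): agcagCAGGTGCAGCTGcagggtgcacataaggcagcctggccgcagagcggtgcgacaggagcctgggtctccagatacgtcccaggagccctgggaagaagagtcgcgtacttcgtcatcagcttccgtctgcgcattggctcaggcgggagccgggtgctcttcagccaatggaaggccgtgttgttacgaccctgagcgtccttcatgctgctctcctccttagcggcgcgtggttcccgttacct
P2ry13 (chr3:59210883-59211132, minus strand): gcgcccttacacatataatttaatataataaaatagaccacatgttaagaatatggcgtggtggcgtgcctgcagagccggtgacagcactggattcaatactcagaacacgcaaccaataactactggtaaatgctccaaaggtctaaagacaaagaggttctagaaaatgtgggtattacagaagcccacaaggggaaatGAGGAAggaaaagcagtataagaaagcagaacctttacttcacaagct
In P2ry2 the match CAGGTG begins 213 bases before the first of its 2 starts, and the promoter of the other has no match. Entpd1 holds CAGGTG and CAGCTG end to end, beginning 245 and 239 bases before the first of its 2 starts, with GAGGAA in 2 copies before the other, and P2ry13 holds GAGGAA 48 bases before its start. The remaining E-box match lay in 1 of the 4 promoters of P2ry14. None of the 3 genes with an E-box match was called in the main test. Their log2 fold changes ran from -0.39 in Entpd1 to 1.46 in P2ry2, and nothing about the motif is read from them.

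The wider purinergic system was described from 9 lists of other genes, of which 99 were in the table and 89 were tested. Of the 89, 5 were higher and 11 lower in knockout cells, which is 18% of those tested beside 16.4% of all genes. Their median log2 fold change was -0.05. These lists too were chosen with earlier results of these data known, and nothing is read from the share called. The genes named from them were picked partly by smallest p. Adjusted p-values given for them below only describe which genes were called and are not support. A term for the replicate number left 0 of the 89 called.

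Receptors outside the set were scarce. Of 10 other P2Y and P2Y-like receptors in the table, 6 were tested and 1 was called lower: Lpar6, a lysophosphatidic acid receptor once listed as P2ry5, had 25.2 ± 6.41 CPM (SD, n = 3) in heterozygous and 12.1 ± 0.748 CPM (SD, n = 2) in knockout cells (log2 fold change -1.06 ± 0.24 with edgeR adjusted p = 0.0349). The Lpar6 call did not survive omission of heterozygous replicate 1 (-1.01) or 2 (-0.89) or knockout replicate 2 (-0.998) or 3 (-1.11), and the value was -0.18 with the length and GC offset. P2ry4, P2ry10, Gpr34 and Gpr171 lay at or below 1.14 CPM in every library. Of 5 other P2X channels, 3 were tested and 0 were called by edgeR, with 1 at an unadjusted p under 0.05, which DESeq2 and limma-voom both called. This was P2rx6, at 0.429 ± 0.141 and 1.45 ± 0.517 CPM (log2 fold change 1.76 ± 0.49). P2rx1 was at 0.633 and 0.829 CPM. The 4 adenosine receptors, which sense the product of Nt5e, gave 0 calls with edgeR, DESeq2 or limma-voom and 0 at an unadjusted p under 0.05. Adora2a, the main anti-inflammatory adenosine receptor of leukocytes, was at 2.83 ± 1.22 and 4.99 ± 2.92 CPM, and Adora1 at 3.22 ± 0.398 and 1.27 ± 1.46 CPM (log2 fold changes 0.82 ± 0.49 and -1.34 ± 0.83). The Adora2a value was 0.05 without knockout replicate 2 and 1.33 without replicate 3. Knockout replicate 2 held 0.24 CPM of Adora1 and replicate 3 held 2.30 CPM; without replicate 3 the log2 fold change was -3.73 and was called.

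Among other enzymes that split nucleotides or NAD outside or within the cell, 1 of 14 tested was higher and 3 were lower. Enpp4, which cleaves the dinucleotide Ap3A, went from 29.3 ± 1.84 to 10.8 ± 0.042 CPM (log2 fold change -1.44 ± 0.13 with edgeR adjusted p = 0.00495). The Enpp4 call held whichever of the 5 libraries was omitted, and the length and GC offset gave -0.83, also called. Entpd5, an enzyme of the endoplasmic reticulum that hydrolyses UDP, was lower (-0.64 ± 0.10, edgeR adjusted p = 0.0148), as was Enpp3, which hydrolyses ATP (-2.60 ± 0.55, edgeR adjusted p = 0.0297). Entpd6, of the same family as Entpd1, was higher (0.48 ± 0.09, edgeR adjusted p = 0.0241). Each of these 3 calls was lost without heterozygous replicate 1 (Entpd5 -0.64, Entpd6 0.52, Enpp3 -2.75), without heterozygous replicate 2 (-0.60, 0.47 and -2.31) and without knockout replicate 2 (-0.58, 0.41 and -2.01). The Enpp3 call was also lost without heterozygous replicate 3 (-2.72), and without knockout replicate 3 the value was -3.62. Under the length and GC offset Entpd5 was at -0.21 and not called. The hepatocyte marker sum was lower in the same knockout libraries, and its part in the Enpp4, Entpd5 and Enpp3 values was not tested. Cd38, the NAD hydrolase, was by far the most abundant of the list, at 1181 ± 52.8 and 1016 ± 27.2 CPM, and was not called (-0.22 ± 0.08). Its value was 0.36 under the length and GC offset.

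The list of enzymes and carriers that handle adenosine and purines, which here included Dpp4, gave 1 higher and 2 lower of 16. Adenosine deaminase, Ada, which turns adenosine into inosine, went from 78.5 ± 3.15 to 134 ± 24.6 CPM (log2 fold change 0.78 ± 0.13 with edgeR adjusted p = 0.0171). Adenosine kinase, Adk, which returns adenosine to AMP, went from 76.6 ± 4.75 to 45.7 ± 4.11 CPM (-0.74 ± 0.11, edgeR adjusted p = 0.0143). The calls of Ada and Adk were lost without heterozygous replicate 1 (0.80 and -0.72), heterozygous replicate 2 (0.75 and -0.79) or knockout replicate 2 (0.57 and -0.66). Under the length and GC offset Ada was at 0.59 and Adk at 0.00. Dpp4 (CD26), a surface protein, went from 12.7 ± 2.87 to 2.54 ± 0.51 CPM (-2.32 ± 0.28, edgeR adjusted p = 0.00932). The Dpp4 call held whichever of the 5 libraries was omitted and with the length and GC offset (-1.65). Hepatocytes are known to make much Adk, and the hepatocyte marker sum was lower in the knockout libraries; its part in these values was not tested. Slc29a1, the equilibrative nucleoside transporter, was abundant in both genotypes, at 1060 ± 59.1 and 1082 ± 95.4 CPM (0.03 ± 0.10), and was not called.

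Genes downstream of the channels moved in both directions. Of 8 genes that act with or after P2rx7 in the inflammasome, 1 was higher and 2 were lower. Il1b, the cytokine that the inflammasome matures, was higher, at 83.4 ± 20.3 CPM in heterozygous and 445 ± 63.4 CPM in knockout cells (2.42 ± 0.21 on the log2 scale with edgeR adjusted p = 0.00443). Casp1, the protease that cuts it, was lower (-0.84 ± 0.11, edgeR adjusted p = 0.0112), as was Nek7, the kinase that bridges NLRP3 molecules (-1.37 ± 0.28, edgeR adjusted p = 0.0263). The Casp1 call was lost without heterozygous replicate 2 (-0.79). The Nek7 call did not survive omission of heterozygous replicate 1 (-1.12) or 2 (-1.38) or knockout replicate 2 (-1.45) or 3 (-1.29). With the length and GC offset both calls were lost, at -0.45 and -0.62. Gsdmd, which forms the pore for release, was at 143 ± 14.6 and 181 ± 8.07 CPM (0.34 ± 0.11) and was not called by edgeR. It was called by DESeq2 (0.36), with the 1 CPM filter (0.36) and without heterozygous replicate 3 (0.42). The neutrophil marker sum was higher in the knockout libraries, and its part in the Il1b value was not tested. Of 6 tested genes of nucleotide release and P2X7 partners, 0 were called by edgeR, DESeq2 or limma-voom, with 2 at an unadjusted edgeR p under 0.05. Ano6, a scramblase that P2rx7 activates, was at 531 ± 53.7 and 461 ± 78.7 CPM.

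G proteins and effectors of the P2Y receptors gave 2 higher and 2 lower of 22. Adrbk1, the receptor kinase that desensitises G protein-coupled receptors, was higher (log2 fold change 0.48 ± 0.11, edgeR adjusted p = 0.0336), as was the G protein gene Gna12 (0.44 ± 0.11, edgeR adjusted p = 0.0462). Rgs2, which shuts off Gq, was lower (-0.67 ± 0.11, edgeR adjusted p = 0.0169), as was Itpr1, a calcium release channel (-1.01 ± 0.24, edgeR adjusted p = 0.0378). All 4 calls were lost without heterozygous replicate 1 (Adrbk1 0.42, Gna12 0.46, Rgs2 -0.64, Itpr1 -1.17), heterozygous replicate 2 (0.46, 0.43, -0.65 and -0.86) or knockout replicate 2 (0.49, 0.27, -0.57 and -1.09), and with the length and GC offset (0.40, 0.33, -0.24 and -0.69). Gna12 and Itpr1 also lost theirs without heterozygous replicate 3 (0.44 and -0.99), Gna12 without a filter on low counts (0.45), and Adrbk1 and Itpr1 without knockout replicate 3 (0.48 and -0.93). Gnai2, the inhibitory G protein to which P2ry12 and P2ry13 couple, was at 1188 ± 73.1 and 1351 ± 123 CPM and was not called.

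P2ry12 and P2ry13 are best known from microglia, and 10 other genes associated with those cells were read beside them. Of these, edgeR called 1, with 5 at an unadjusted p under 0.05, and DESeq2 called 5. The gene called by edgeR was lower: Cx3cr1, the fractalkine receptor, went from 53.5 ± 3.01 to 29.9 ± 8.38 CPM (log2 fold change -0.84 ± 0.19 with edgeR adjusted p = 0.0328). The Cx3cr1 call did not survive omission of heterozygous replicate 1 (-0.80), 2 (-0.82) or 3 (-0.88) or knockout replicate 3 (-0.57), and was lost with the length and GC offset (-0.66). Tmem119, a surface protein of microglia, was at 9.93, 13.1 and 9.19 CPM in heterozygous libraries, below the 22.4 and 13.5 CPM of the knockout pair, and was not called.

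**Figure D4:**
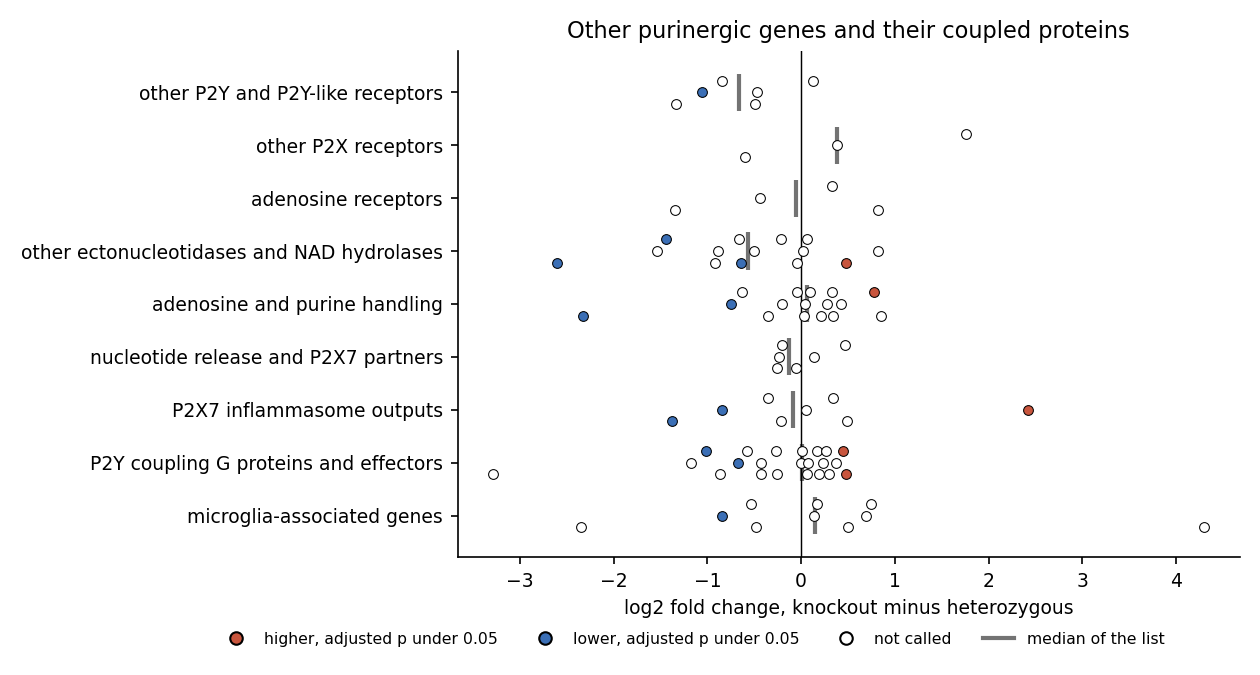
Log2 fold changes, knockout minus heterozygous, of the 89 tested genes in the 9 lists of other purinergic and coupled genes. Each point is a gene (red called higher, blue called lower, white not called) and each grey bar the median of its list; 5 points are red and 11 blue.

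The genes whose profiles over the 5 libraries were closest to those of P2ry2 and P2ry12, the genes with the highest and lowest fold change of the 10, were found by the distance between centred log2 CPM, among named genes with a mean of at least 5 CPM. For P2ry2 they were Cyr61, a secreted matrix protein (distance 0.433), Tnfrsf13b, a TNF family receptor (0.511), and Cxcr4, a chemokine receptor (0.525). For P2ry12 they were Lyve1, a hyaluronan receptor of endothelium and some macrophages (0.235), Chdh, the choline dehydrogenase (0.235), and She, an adaptor protein (0.31). Cyr61 had 37.1, 33.8 and 20.1 CPM in heterozygous and 89.0 and 67.2 CPM in knockout libraries, the same shape as P2ry2. These are likenesses over 5 libraries of 2 genotypes and say nothing of shared control.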

How the data were processed

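Poly-A RNA of Kupffer cells from 5 samples was amplified with SMART-seq V4 and made into Kapa libraries with 8 PCR cycles, per the labels' protocols. The authors deposited raw read counts per gene. The submitters' processing notes name HTSeq 0.5.4, DESeq 1.18.0, R 3.1.2 and build mm9. The sources used here do not give the aligner, annotation release or strand setting, so overlapping genes on opposite strands cannot be told apart. Entries that name no gene made up 47.0% to 48.6% of the counts in heterozygous and 40.0% to 42.8% in knockout libraries and were left out.

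In R 4.3.3, edgeR 4.0.16 (filterByExpr, TMM, quasi-likelihood test, Benjamini-Hochberg over 16436 genes) compared knockout with heterozygous, using all 5 samples without covariates. Alternatives used DESeq2 1.42.0 and limma 3.58.1, other scalings and filters, a replicate block, offsets for length and GC content, and fits without each sample. edgeR, DESeq2 and limma-voom with the main settings were tested on simulated data, where DESeq2 had a larger share of false calls than the other two and than its threshold allows. The SE is the log2 fold change over the root of F. Levels are TMM-normalised CPM; marker sums are CPM on library size. Exon lengths, transcript GC content and neighbours came from GENCODE M21, which matched 16389 of the tested genes; since its build is not mm9, no gene coordinates are given. Promoters are RefSeq's.

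The 10 genes and all lists were chosen with earlier results of these data known. Named genes were all 10, and in each other list up to 4 called by smallest p and 2 uncalled by highest level. P2ry4, Gpr34, Tmem119, Stab2 and Ptprb were added after their values were seen. One gene that this rule names is not reported here.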

Additional observations from a re-analysis of the deposited data

How the results depend on the processing

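Of the 10 genes, 3 were called in the main test, 7 with DESeq2, 5 with limma-voom and 5 with the filter of 1 CPM in 2 samples; leaving out 1 library gave 0 to 4. For the other purinergic lists the count was 16, with 31 under DESeq2, 9 with length and GC offsets (6 higher, 3 lower) and 3 to 18 without 1 library. Over all genes it was 2698 (1054 higher, 1644 lower), 4581 with DESeq2, 1510 with the offsets (735 higher, 775 lower) and 335 to 2540 without 1 library; upper-quartile scaling gave 1443 higher and 1499 lower. The cause of these shifts was not tested. With a replicate block the counts were 1 over all genes, 0 of the 10 genes (5 at an unadjusted p under 0.05) and 0 in the other lists (18). The replicate numbers are not known to pair the samples. Same-numbered libraries correlated at -0.026 and -0.062 in their deviations from the group means. With 2 knockout libraries these deviations mirror each other, so the correlations cannot decide whether samples were paired. The fit without heterozygous replicate 2, with 0 of the 10 called by edgeR, had 7 at an unadjusted p under 0.05. Where 1 knockout library was left out, the other was assumed to vary like the heterozygous ones. Adk went to 0.002 with the offsets, on the other side of 0; no called member changed sign in any of the 14 alternatives. The order by level per kilobase left 8 of 10 genes in place with the longest transcript, 8, 6 and 8 in heterozygous libraries 1, 2 and 3 alone, and 6 and 8 in knockout libraries 2 and 3 alone. Genes under 5 CPM (P2ry1, P2ry2 in heterozygous cells, Nt5e) rest on 66 to 381 counts per library, apart from P2ry2 in knockout cells.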
